A study of Mus musculus and Homo sapiens with 12 samples.

Results

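MHC class I presentation genes were followed through 2 tumour models: the heavy chain genes H2-K1 and H2-D1 in mouse and HLA-B and HLA-C in human, the light chain gene B2M, the peptide transporter genes TAP1 and TAP2, the loading factor gene TAPBP and the class I transactivator gene NLRC5. They were chosen by gene symbol, compared in capitals. Of the 9 listed symbols, 7 had a row among the 23201 genes of the mouse table and 7 among the 18190 genes of the human table. RNA came from 12 samples in 4 groups of 3 biological replicates, all labelled wild type. KPC, from mouse, and PANC1, an established human line, both come from pancreatic ductal carcinoma. KPC LM2 and PANC1 LM3 are their liver-metastatic derivatives of generation 2 and generation 3. Each host received 500000 cells in the spleen at day 1 and its liver tumours were collected at day 21. The sample titles name cells and the protocol names tumours, so whether the RNA came from tumour tissue or from cells is not settled. Each derivative is a single selected line, so its 3 samples are repeats of that line, and the labels give neither the host's strain nor its age.

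Class I molecules show peptides from inside a cell to CD8 T cells. Proteasomes cut proteins into peptides, the TAP1 and TAP2 transporter carries them into the endoplasmic reticulum, and tapasin (the product of TAPBP), calreticulin and ERp57 help to load them onto a heavy chain paired with beta-2 microglobulin. NLRC5, the RFX proteins, CREB family members and NF-Y act on the promoters of the heavy chain and B2M genes, and interferon gamma acts on the same genes. Low class I on pancreatic cancer cells is a known route by which they escape T cells.

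Each model had 1 comparison table without values per library, so levels in single samples, and whether groups overlapped, cannot be given, and the depth per sample is unknown. The level of a gene is its mean normalised count (averaged over the libraries of both groups, per the authors' table), and levels summed to 9106249 in the mouse table and 15415388 in the human table. Which group is the numerator of a fold change is not stated. Signs are therefore given as listed, no sign is tied to a parental or selected line, and signs are not compared between models. A gene was called where the authors' adjusted p was under 0.05, and errors after ± are the listed standard errors (SE) on the log2 scale.

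The promoters of the mouse heavy chain genes and of B2m are shown first because H2-K1 and B2m were the called members in mouse and their windows share a spaced pair of motifs. The sequences are the 250 bases before the RefSeq start of each gene in GRCm38.p6, a different build from the mm39 named by the submitters, on the gene's own strand: H2-K1 at chr17:34000348-34000597 on the minus strand, H2-D1 at chr17:35262844-35263093 and B2m at chr2:122147437-122147686, both on the plus strand. H2-K1 had 2 such windows, of which the first listed was used, while H2-D1 and B2m had 1 each. Capitals mark 4 kinds of match, searched on both strands: the kappaB element as H2-K1 has it (GGGGATTCCCC), an interferon response element (GAANNGAAA or GAANNNGAAA), a CRE core (TGACG) and an inverted CCAAT box (ATTGG).
H2-K1: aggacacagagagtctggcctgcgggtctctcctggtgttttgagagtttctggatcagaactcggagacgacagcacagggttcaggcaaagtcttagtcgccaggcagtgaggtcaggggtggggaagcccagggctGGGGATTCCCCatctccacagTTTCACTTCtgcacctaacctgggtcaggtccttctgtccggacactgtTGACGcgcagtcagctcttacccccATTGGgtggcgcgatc
H2-D1: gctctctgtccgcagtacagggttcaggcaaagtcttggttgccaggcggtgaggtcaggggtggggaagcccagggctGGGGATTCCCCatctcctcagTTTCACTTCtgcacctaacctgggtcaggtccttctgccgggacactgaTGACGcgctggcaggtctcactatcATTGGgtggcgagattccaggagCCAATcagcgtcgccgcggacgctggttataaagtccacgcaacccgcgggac
B2m: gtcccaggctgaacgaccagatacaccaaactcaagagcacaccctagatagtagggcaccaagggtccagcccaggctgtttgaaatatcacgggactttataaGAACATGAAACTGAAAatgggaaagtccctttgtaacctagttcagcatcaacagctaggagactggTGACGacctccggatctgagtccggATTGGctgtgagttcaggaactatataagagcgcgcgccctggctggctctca
Over 177 aligned bases without a gap the H2-K1 and H2-D1 sequences were 91.0% identical. In both, the interferon element began 21 bases after the kappaB element, the CRE core 49 bases after that and the inverted CCAAT box 25 bases further on. B2m had no match to these kappaB letters, the first of its 2 overlapping interferon matches began 67 bases before the CRE core, and the inverted CCAAT box again stood 25 bases after the CRE core. A CRE core followed at that distance by an inverted CCAAT box occurred in 25 of 27025 mouse promoter windows of 250 bases (0.0925%). With an interferon element as well it occurred in 5 (0.0185%), those of H2-K1, H2-D1, B2m, the class I-like gene H2-M3 and Trim26, a gene of the same chromosomal region. Singly, the matches occurred in 0.0222% (kappaB), 12.3% (interferon element), 17.9% (CRE core) and 34.5% (inverted CCAAT) of the windows. The letters were chosen from the known class I promoter elements with these sequences in view. The distance of 25 bases was read from H2-K1, H2-D1 and B2m themselves, so their presence among the 5 was fixed in advance. A match is a description of letters, not of binding. The window of Tap1 held a CRE core and a CCAAT box, that of Tapbp held 2 inverted CCAAT boxes, and neither matched the kappaB or interferon letters.

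Between KPC and KPC LM2 samples, 2 of the 7 class I genes were called, both positive, and 0 were called negative. The background was 10.4% of 20050 tested genes called in either direction with 5.77% called positive and 4.60% negative. Positive calls made up 55.7% of all calls as listed and 23.5% after recentring on genes at a level of 64 or more. The members' median log2 fold change was 0.55, against -0.08 over all tested genes and 0.22 over those at a level of 64 or more. H2-K1, which encodes a classical heavy chain, had a level of 450 and a log2 fold change of 1.92 ± 0.22 in the authors' deposited table, or 3.79-fold, with the Wald test's adjusted p of 4.14e-16. It ranked 24 by p among all tested genes, and 99.3% of genes at a level of 64 or more had a lower fold change. B2m, the light chain shared by all class I molecules, was listed at 1.04 ± 0.30 with a level of 1377 in the authors' deposited table (2.06-fold, Wald adjusted p = 0.0115).

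H2-D1, the other classical heavy chain gene listed, stood at 0.55 ± 0.34 in the authors' deposited table with a level of 242 and was not called (Wald adjusted p = 0.281). Its 95% interval ran from -0.13 to 1.22 and lay wholly below that of H2-K1, which ended at 2.35. The gap between the 2 heavy chains was 1.38 on the log2 scale. This gap was not tested, since the tables do not give the covariance of the errors. The coding sequences of these genes are alike, and how reads with more than 1 placement were counted is not given in the sources used here, so the division of reads between H2-K1 and H2-D1 is uncertain. H2-D1 and B2m also had wide errors for their level: only 5.01% and 4.13% of genes within 1.5 times their level had a larger SE, while for H2-K1 58.1% did.

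The peptide transporter and loading genes of KPC were not called. Tapbp was listed at 0.32 ± 0.20 with a level of 482 in the authors' deposited table, with a 95% interval from -0.08 to 0.71. Tap1 and Tap2, the chains of the transporter, had levels of only 7.10 and 13.6 in the authors' deposited table. Their log2 fold changes there were -0.98 ± 0.84 and 0.59 ± 0.65, with intervals from -2.63 to 0.66 and from -0.68 to 1.87, so a negative change of 1 for Tap1 or a positive change of 1 for Tap2 was within the error and not detectable at this depth. Nlrc5 was at -0.51 ± 0.63 with a level of 27.3 in the authors' deposited table. Genes at such levels lay on the negative side as a whole: those within 1.5 times the level of Tap1 had a median of -1.43, and those near Tap2 a median of -1.05.

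Per length, the mouse class I genes spanned a wide range of levels. Levels were divided by the union of each gene's annotated exons in GENCODE M21, 860 bases for B2m and 5476 for Tap1. Such a union can be longer than a single transcript, which lowers the value per kb. The result was 1601 per kb for B2m, 153 for H2-K1, 133 for Tapbp and 94.0 for H2-D1. Tap2 and Nlrc5 followed at 3.60 and 3.22 per kb and Tap1 at 1.30 per kb, far below the heavy chain genes. Psmb8 and Psmb9, immunoproteasome genes that lie beside the Tap genes, were also low, at 1.25 and 0.316 per kb. Psmb10, another immunoproteasome gene, was at 51.3 per kb, near the constitutive subunit gene Psmb5 at 67.4. The constitutive subunit genes Psmb6 and Psmb7 stood at 465 and 504 per kb. The promoter windows of Tap1 and Psmb9, read from opposite strands, share 275 of 300 bases. Since libraries of both groups are averaged, these levels do not show in which group a gene was higher.

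**Figure D1:**
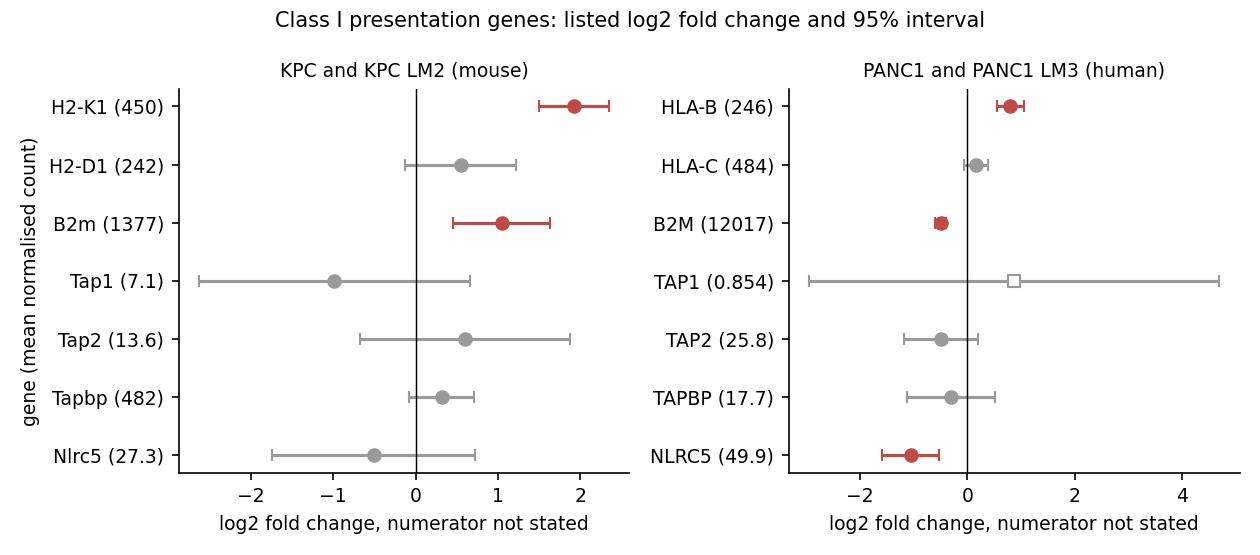
Log2 fold change (x axis, numerator not stated) of each class I gene (y axis, level in brackets) between KPC and KPC LM2 samples (left) and between PANC1 and PANC1 LM3 samples (right), with bars for the 95% interval from the listed SE; red marks genes called at an adjusted p under 0.05, grey marks the others and the open square a gene without an adjusted p. H2-K1 and B2m were the called mouse genes, both positive, whereas the called human genes were HLA-B on the positive side and B2M and NLRC5 on the negative side.

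Between PANC1 and PANC1 LM3 samples, the called class I genes went in opposite directions. HLA-B, a classical heavy chain gene, was listed at 0.80 ± 0.13 with a level of 246 in the authors' deposited table (1.74-fold, Wald adjusted p = 2.83e-09). B2M stood on the other side at -0.50 ± 0.06, a 1.41-fold difference, with a level of 12017 in the authors' deposited table (Wald adjusted p = 2.29e-18). NLRC5, the class I transactivator, was also negative, at -1.06 ± 0.27 with a level of 49.9 in the authors' deposited table (2.08-fold, Wald adjusted p = 0.000208). So by these fold changes, whichever group is the numerator, the group with more HLA-B RNA had less B2M and less NLRC5 RNA. HLA-B lies in a chromosomal region of sparse human values, described below, and how this bears on its fold change was not tested. The 3 calls among 6 tested members compare with 52.5% of 17838 tested genes called in this table, 26.0% positive and 26.5% negative, so the number of calls is near the background.

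HLA-C, the second human heavy chain gene, was listed at 0.16 ± 0.11 with a level of 484 in the authors' deposited table and was not called (Wald adjusted p = 0.241). Its 95% interval, from -0.06 to 0.38, did not reach that of HLA-B, from 0.55 to 1.06, and the gap of 0.64 was likewise not tested. The HLA heavy chain genes also resemble each other, so the split of reads between HLA-B and HLA-C is uncertain. For TAP2 the authors' deposited table gave -0.50 ± 0.35 and a level of 25.8, for TAPBP it gave -0.31 ± 0.42 and 17.7, and neither was called. TAP1 had a level of 0.854 and no adjusted p in the authors' deposited table, and its interval ran from -2.95 to 4.69, so no change in either direction was detectable. The median log2 fold change of the 6 tested members was -0.40, against -0.0020 over all tested genes.

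**Figure D2:**
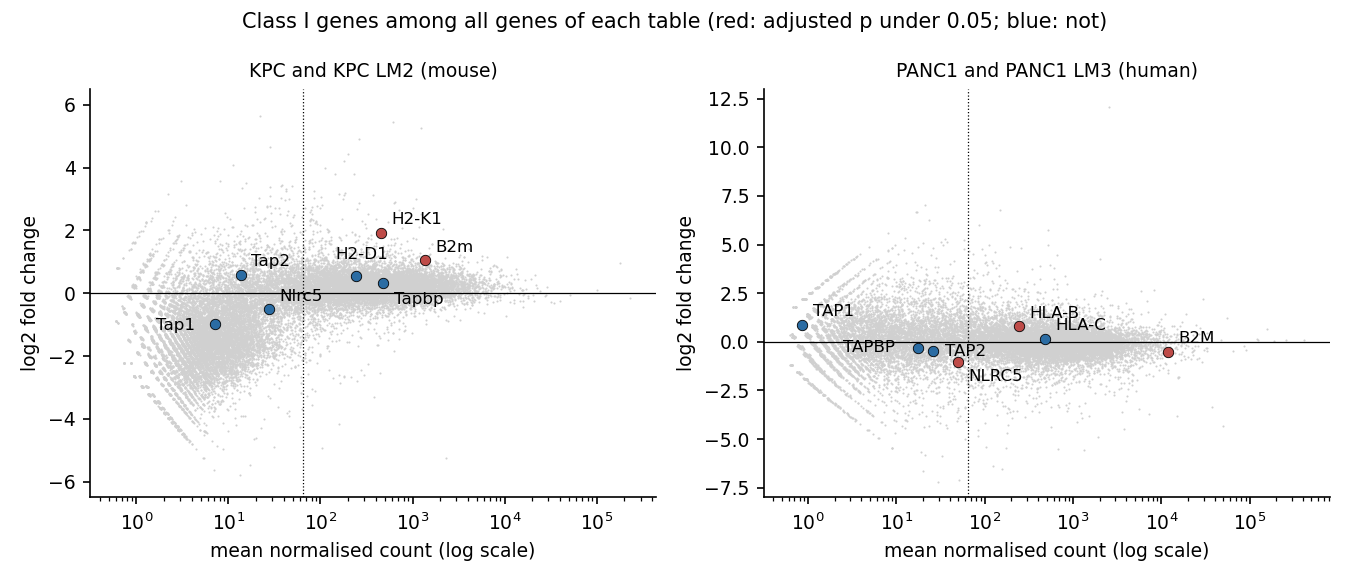
Log2 fold change (y axis, numerator not stated) against level (x axis, log scale) for every gene of each table in grey, with the class I genes in red where called and in blue where not; the dotted line is at a level of 64. Tap1, Tap2 and Nlrc5 lay left of the line in the mouse table, and TAP1, TAP2, TAPBP and NLRC5 did in the human table.

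The low human levels of TAP1, TAP2 and TAPBP were shared by their chromosomal neighbours. In both species the heavy chain, TAP, TAPBP, PSMB8 and PSMB9 genes lie in the major histocompatibility complex among many widely expressed genes, while B2M and NLRC5 lie on other chromosomes. Taking protein-coding genes from Daxx to Gabbr1 in mouse gene order (RefSeq, GRCm38.p6), without H2 genes, 67 had a level of 64 or more in the KPC table, with a median of 355. Only 21 of these 67 symbols (31.3%) had a row in the PANC1 table, with a median level of 12.7, and 3 reached 64. Of 9481 other mouse genes at that level, 8689 (91.6%) had a row there, with a median of 716. The region's genes BAG6 and BRD2 had levels of 14.6 and 20.2 in the PANC1 table against 1390 and 3286 in the KPC table, and the ribosomal protein gene RPS18 was not listed although 78 other ribosomal protein symbols were, with a median of 5961. These 3 genes were named after their values were seen. Some symbols differ between species, such as Tubb5 in mouse. The human levels of HLA-B, HLA-C, TAP1, TAP2, TAPBP, PSMB8 and PSMB9 are thus values from a region in which most genes were at or near the floor of that table. A low or missing value there cannot be read as low RNA, and how this bears on their fold changes was not tested.

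**Figure D3:**
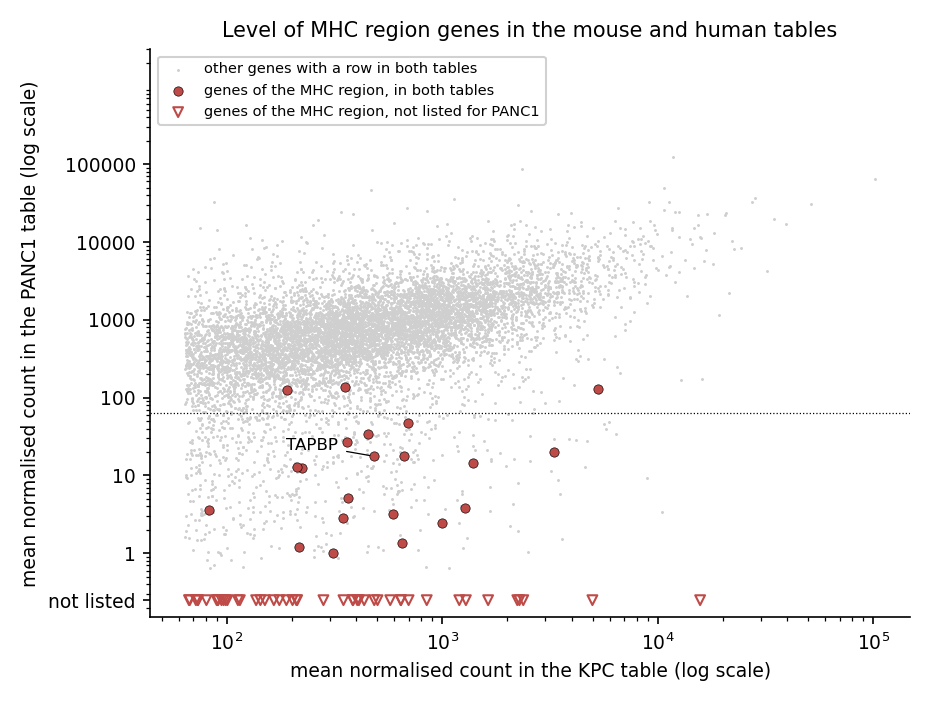
Level in the PANC1 table (y axis, log scale) against that in the KPC table (x axis, log scale) for genes matched by symbol, with 67 genes of the mouse MHC region in red and other genes in grey; open triangles on the bottom line, which is no value, mark the 46 region genes without a row in the PANC1 table, and the dotted line is at 64. Most region genes with a row lay under 64, including TAPBP at 17.7.

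The same neighbours were chosen for a level of 64 or more in the KPC table, so their detection there was fixed in advance. Region genes under 64, Tap1 and Tap2 among them, were left out. Of the 67 region genes, Tapbp among them, 0 were called positive by the Wald test (1 at an unadjusted p under 0.05) and 3 negative, with a median log2 fold change of -0.27, against a median of 0.22 for the 9767 tested genes at 64 or more. Over all tested genes 5.77% were called positive and 4.60% negative. At a level of 64 or more, with p readjusted over such genes, 13.8% were called, and 83.4% of those calls were positive. H2-K1, at 1.92, lies in the same region.

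The rest of the pathway was followed through 11 further gene lists, with 89 genes tested in mouse and 76 in human. Of these 89 mouse genes 13 were called, 10 positive and 3 negative, or 14.6% against the background of 10.4%. At a level of 64 or more, with p readjusted over such genes, 9 of 54 were called, against 13.8% of all mouse genes at that level. Among the 76 human genes 56 were called, 18 positive and 38 negative, and the median log2 fold change of the 76 was -0.39 against -0.0020 over all tested genes. The 61 of these genes at a level of 64 or more were also read with p readjusted over such genes, and 51 of the 61 were called, against 71.0% of the 11301 genes at that level.

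Peptide loading genes were mostly positive in KPC and mostly negative in PANC1, signs that cannot be matched between the tables. All 8 tested KPC genes had a level of 64 or more, where 73.5% of all genes were positive, so 7 of 8 positive is near the background. In KPC 3 of 8 were called, all positive, with a list median of 0.54: Calr, which encodes calreticulin, at 0.86 ± 0.23, and the glycoprotein folding genes Uggt1 at 0.60 ± 0.17 and Ganab at 0.56 ± 0.17 in the authors' deposited table. These calls were 37.5% of the list, against 13.8% of genes at that level with p readjusted over them, and all 3 were lost after recentring (Wald adjusted p = 0.0561, 0.125 and 0.179). In PANC1 8 of 9 were called (88.9%, against 71.0% of genes at a level of 64 or more, which all 9 reached), 7 of them negative, with a list median of -0.48. CALR was at -1.06 ± 0.06, PDIA3 (ERp57) and UGGT1 both at -0.74 with SE of 0.06 and 0.05, and the peptide-trimming gene ERAP2 at -0.71 ± 0.08 in the authors' deposited table. HSPA5, the general chaperone BiP, was the exception at 1.41 ± 0.06 in the authors' deposited table. Cytosolic peptidase genes, which trim or destroy peptides before transport, had 5 of 6 called in PANC1 (83.3%, against the same 71.0%), all negative, led by NPEPPS, a 2.00-fold difference, and THOP1 at -1.10 ± 0.10 in the authors' deposited table. LAP3 and BLMH were at -0.80 ± 0.08 and -0.64 ± 0.08 there. In KPC 1 of 6 was called, Nrd1, at 0.63 ± 0.20 in the authors' deposited table, and the call was lost after recentring (Wald adjusted p = 0.159).

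Called genes of the PA28 proteasome activator had the sign of the loading genes in each table. Psme1, which encodes one of its subunits, was the 1 call among 4 tested immunoproteasome and PA28 genes in KPC, at 0.64 ± 0.21 in the authors' deposited table, and was lost after recentring (Wald adjusted p = 0.161). In PANC1, PSME1 at -0.94 ± 0.08 and PSME2 at -0.58 ± 0.07 were the 2 calls of 5 in the authors' deposited table (40.0%, against 52.5% of all tested genes). PSMB8 and PSMB9, induced by interferon gamma, had levels of 2.84 and 1.42 in PANC1, where neither was called. In KPC, Psmb8 was not called at a level of 4.21, and Psmb9, at 1.15, had no adjusted p. The constitutive catalytic subunits went both ways in PANC1, with PSMB5 at -0.48 ± 0.06, PSMB6 at -0.85 ± 0.07 and PSMB7 at 0.54 ± 0.07 in the authors' deposited table. In KPC 0 of 3 were called by the Wald test (0 at an unadjusted p under 0.05), and Psmb7 was at -0.15 ± 0.23 in the authors' deposited table.

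**Figure D4:**
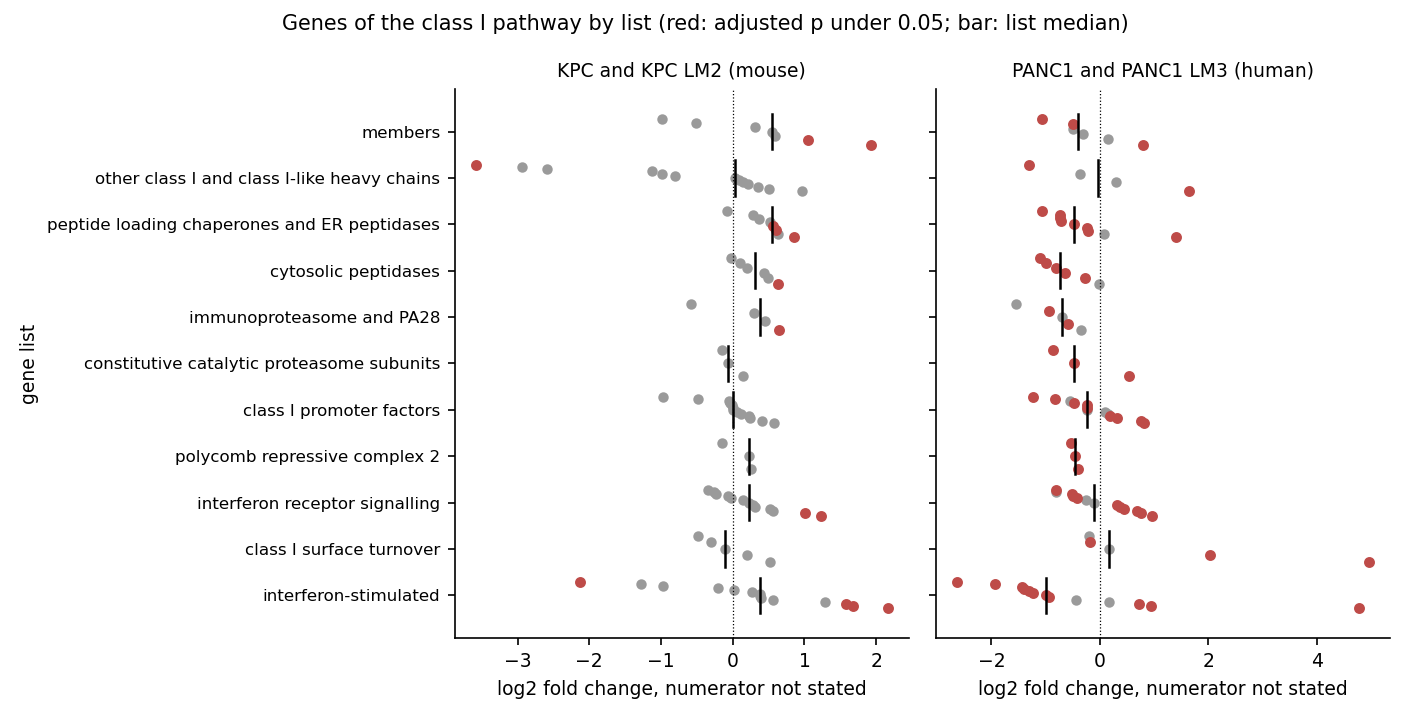
Log2 fold change (x axis, numerator not stated) of each tested gene of the class I pathway, by list (y axis), between KPC and KPC LM2 samples (left) and between PANC1 and PANC1 LM3 samples (right); each point is 1 gene, red where called, spread vertically by rank, and black bars are list medians. The peptide loading list had medians of 0.54 and -0.48, and MARCHF4 is the point at 4.97 in the right panel.

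Calls among genes that act on the class I promoter or on its interferon input were near the background in KPC. By the Wald test 0 of 13 promoter factor genes (1 at an unadjusted p under 0.05) and 0 of 3 genes of polycomb repressive complex 2, which can silence class I genes, were called there (0 at an unadjusted p under 0.05). Nfkb1 and Ezh2, at -0.05 ± 0.18 and -0.15 ± 0.20 in the authors' deposited table, were the most abundant of each list. Of 13 interferon receptor and signalling genes 2 were called, both positive, or 15.4% against 10.4% of all tested genes. Socs3, a feedback inhibitor of JAK signalling, was at 1.00 ± 0.28 in the authors' deposited table, on the same side as H2-K1 and B2m.

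In PANC1 the promoter factors and the interferon signalling genes had calls of both signs, at shares near the background of 71.0% for genes at a level of 64 or more. Of 13 promoter factor genes 4 were called positive and 5 negative (69.2%). The RFX complex genes RFXANK and RFX5 stood at -1.24 ± 0.12 and -0.82 ± 0.07, beside NLRC5 on the negative side, while CREB1 at 0.76 ± 0.07 and IRF2 at 0.81 ± 0.11 were positive in the authors' deposited table. NF-Y subunit genes were at 0.19 ± 0.07 for NFYA and -0.48 ± 0.09 for NFYC, with ATF1 at 0.33 ± 0.08 and NFKB1 at -0.23 ± 0.08 in the authors' deposited table. Of 13 interferon receptor and signalling genes 6 were called positive and 4 negative (76.9%). JAK1 was at -0.49 ± 0.06, IFNAR1 at -0.51 ± 0.09 and TYK2 at -0.43 ± 0.08, against JAK2 at 0.97 ± 0.16 and the interferon gamma receptor genes IFNGR1 at 0.76 ± 0.08 and IFNGR2 at 0.38 ± 0.07 in the authors' deposited table. SOCS3 was at 0.68 ± 0.07 there, on the side of HLA-B. All 3 polycomb repressive complex 2 genes were negative, with EZH2 at -0.40 ± 0.08, EED at -0.46 ± 0.09 and SUZ12 at -0.54 ± 0.08 in the authors' deposited table.

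Of 5 tested genes whose products remove class I from the cell surface, 3 were called in PANC1 (60.0%). The background was 52.5% of all tested genes and 71.0% of those at a level of 64 or more, which 4 of the 5 reached. MARCHF4 and MARCHF9 encode membrane-bound ubiquitin ligases that send class I molecules to lysosomes. MARCHF4 was listed at 4.97 ± 0.61, or 31.3-fold, with a level of 33.2, and MARCHF9 at 2.03 ± 0.25, or 4.07-fold, with 64.2, in the authors' deposited table (Wald adjusted p = 2.24e-15 and 1.09e-14). Whether 1 group was at 0 for MARCHF4 is not shown, so its fold is a fitted value. Both were on the side of HLA-B and opposite to B2M and NLRC5. The third call of 5, TMEM127, part of another class I turnover complex, had -0.17 ± 0.06 in the authors' deposited table, a call that was lost after recentring (Wald adjusted p = 0.0548). In KPC 0 of 5 such genes were called by the Wald test (1 at an unadjusted p under 0.05), with Tmem127 at -0.30 ± 0.21 in the authors' deposited table.

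Of 4 tested class I-like heavy chain genes of PANC1, 2 were called, 1 in each direction (50.0%). The background was 52.5% of all tested genes and 71.0% of those at a level of 64 or more, which 3 of the 4 reached. FCGRT, the neonatal Fc receptor, was at 1.65 ± 0.11 and HFE, an iron-regulating class I-like protein, at -1.31 ± 0.11 in the authors' deposited table. In KPC 1 of 13 other class I and class I-like genes was called, H2-M2, at -3.59 ± 1.12 with a level of 6.22 in the authors' deposited table. That call was lost after the running median of genes of like level was subtracted (-2.20, Wald adjusted p = 0.299). H2-M3 and Trim26, named after their values were seen because they share the spaced promoter letters with H2-K1, stood at 0.03 and 0.47 in the authors' deposited table and were not called (Wald adjusted p = 0.968 and 0.145).

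Markers of other cells that could bring class I RNA into a sample were mostly low in both tables, and keratins were high. PANC1 reads were placed on the human build hg19, so low human markers cannot show that cells of a non-human host were few. Of all tested genes, 10.4% were called in KPC and 52.5% in PANC1. In these bulk samples, fewer cells of a type and less RNA per cell cannot be told apart. Of 13 leukocyte markers listed for KPC 1 had a level of 64 or more, Cd14, at 0.26 ± 0.25 with 471, and the list's summed level was 630. Krt18, the most abundant ductal marker, had a level of 28158, while H2-K1 had 450, H2-D1 242 and B2m 1377. The list had 0 positive and 2 negative calls of 11 tested. Ptprc, the pan-leukocyte gene, named after its value was seen, was not called at -1.27 ± 0.51 with a level of 28.9 in the authors' deposited table (Wald adjusted p = 0.0854). All 7 endothelial, 7 fibroblast and 7 hepatocyte markers of the KPC table were under 64, with 0, 1 and 0 called, all negative, by the Wald test (2, 5 and 4 at an unadjusted p under 0.05). Their list medians were -1.14, -1.66 and -1.61. Of these markers 3, 3 and 5 were under a level of 16, where the median of all tested KPC genes was -1.43. For PANC1, 9 of 14 leukocyte markers were listed, of which CD68 alone was at 64 or more, at 1.91 ± 0.07 with 1103, and PTPRC had a level of 2.26 in the authors' deposited table. Of 8 tested, 2 were called positive and 1 negative, and the list median was -0.28. The other calls were CD8A at 1.54 ± 0.66 and ITGAM at -0.92 ± 0.34, with levels of 9.48 and 28.5, in the authors' deposited table. COL1A1 and COL3A1 of the fibroblast list and CPS1 of the hepatocyte list were also at 64 or more, at -0.13 ± 0.16, 1.05 ± 0.11 and -1.45 ± 0.18 in the authors' deposited table. The fibroblast list had 1 positive and 0 negative calls of 6 tested, with a median of -0.01. The hepatocyte list had 1 positive and 1 negative call of 5 and a median of 0.94: 4 of the 5 were positive, and ASGR1 was called at 2.01 ± 0.53 with a level of 13.4 in the authors' deposited table. The endothelial list had 1 call of 3, CDH5, at -4.09 ± 0.95 with a level of 9.89 in the authors' deposited table. CD8A, ITGAM, ASGR1, CDH5 and KRT7 are named after their values were seen. Summed levels cannot be given per group from these tables, and the part of host cells in the class I values was not tested. Among ductal markers, Krt7 was at 1.18 ± 0.18, Epcam at -1.14 ± 0.28 and Cldn4 at -1.99 ± 0.28 in KPC, with Krt8, Krt18, Krt19 and Cdh1 not called, in the authors' deposited table. In PANC1 KRT8 was at -4.35 ± 0.06, KRT18 at -3.35 ± 0.05, KRT19 at -3.79 ± 0.05, CDH1 at -3.92 ± 0.10, CLDN4 at -0.12 ± 0.05 and EPCAM at 0.97 ± 0.10 in the authors' deposited table. KRT7, with a level of 45.4, was not called at 0.09 ± 0.26 there. Thus 3 of the 4 keratin genes were on the side of B2M, and the small CLDN4 call was lost after recentring (Wald adjusted p = 0.161).

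The H2-K1 call held when fold changes were recentred on genes at 64 or more (1.70, Wald adjusted p = 1.54e-12) and when the running median of genes of like level was subtracted (1.69, Wald adjusted p = 2.72e-12). The B2m call was lost in both settings, at 0.82 (Wald adjusted p = 0.0556) and 0.81 (Wald adjusted p = 0.0965), as were those of Calr, Uggt1, Ganab, Nrd1, Psme1 and Socs3.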

How the data were processed

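RNA sequencing of 12 samples was analysed from 1 table per model holding the authors' own comparison of 2 groups of 3. The submitters' processing notes name DESeq2 1.24, featureCounts 2.0.0, STAR 2.7.6a and MultiQC 1.9, with the builds hg19 and mm39, and the settings, annotation and handling of multiply placed reads are not given in the sources used here. Per the file headers, the authors deposited a mean normalised count (a signal over libraries of both groups, called level), a log2 fold change with its SE, a Wald score, and p-values with adjusted p-values. An adjusted p was listed for 20050 mouse genes, down to a level of 3.08, and for 17838 human genes, down to 1.08. No value per library exists in the columns used, so the planned count test was not run, depth per sample is unknown, and the authors' Wald test was used.

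Intervals of 95% were taken from the listed SE. Other pathway genes were named by rule: up to 4 called genes per list and direction by smallest adjusted p, the most abundant gene where none was called, and markers at a level of 64 or more; genes named beyond it are described as such or serve as contrasts. A gene that the rule selects is not reported here. The members and lists were chosen with earlier results of these data known, and the comparison of the chromosomal region and the promoter search were added after the values were seen. Promoters were taken from RefSeq (GRCm38.p6), where 5 of the 7 mouse members had an entry, and aligned with Biopython 1.88. Alternatives were a stricter adjusted p, a minimum fold change, adjustment over all genes with a p, genes at 64 or more, recentring, subtraction of a running median over 501 genes, and a t distribution with 4 degrees of freedom. The steps were tested on simulated data. Replicates are biological per the labels, which do not tie them to separate mice, so p-values measure the spread between these samples. Scripts ran under Python 3.11.15 with scipy 1.17.1, pandas 2.3.3, matplotlib 3.10.9 and numpy 2.4.6.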

Additional observations from a re-analysis of the deposited data

How the results depend on the processing

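Of the called class I genes, H2-K1, HLA-B, B2M and NLRC5 kept their calls under recentring, trend subtraction and adjustment over all genes with a p. In KPC the 2 class I calls became 1 at an adjusted p under 0.01, 1 after recentring, 1 after the level trend was subtracted and 0 by the t distribution with 4 degrees of freedom, where 0 of 20050 genes passed (2132 at an unadjusted p under 0.05, with 2 class I genes and 13 pathway genes among them) and H2-K1 had an adjusted p of 0.43. In PANC1 the 3 calls became 1 with an absolute log2 fold change over 1, and all 3 held by the t distribution (adjusted p from 0.0074 for B2M to 0.0476 for NLRC5). The 13 pathway calls of KPC became 6 at 0.01, 8 with an absolute log2 fold change over 1, 8 after recentring (3 positive and 5 negative), 7 after trend subtraction and 0 by the t distribution. The 56 of PANC1 became 15 with an absolute log2 fold change over 1. After trend subtraction Tap1 went from -0.98 to 0.41, and Krt8 went from 0.02 to -0.18, or to -0.20 after recentring, none of them called. Recentring shifted KPC fold changes by 0.22 and took the share of positive calls over all genes from 55.7% to 23.5%. The 2079 calls over all KPC genes became 889 at 0.01, 1303 with an absolute log2 fold change over 1, 1345 at a level of 64 or more and 1133 after trend subtraction, and the 9361 of PANC1 became 2759 with an absolute log2 fold change over 1. Low counts limit the TAP, NLRC5 and immunoproteasome genes. No paired analysis was possible because the tables hold no value per library, and for the same reason no replicate was left out.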

Other observations

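Interferon-stimulated genes were counted as a contrast to the class I genes. In KPC 3 of 14 tested were called positive and 1 negative (28.6%, against 10.4% of all tested genes). Oasl1 was at 2.16 ± 0.38, Bst2 at 1.68 ± 0.43 and Gbp2 at 1.59 ± 0.53, against Oas2 at -2.14 ± 0.75 in the authors' deposited table. The Oas2 call was lost after trend subtraction (-0.92, Wald adjusted p = 0.618) and on adjustment over all genes with a p (0.0534), and the Gbp2 call after recentring (1.37, Wald adjusted p = 0.0712). In PANC1 11 of 13 were called (84.6%, against 52.5% of all tested genes), 3 positive and 8 negative. Of genes at a level of 64 or more 71.0% were called, and the list median was -0.99. IFIT1 at -2.64 ± 0.11, IFIT3 at -1.31 ± 0.12, OASL at -1.24 ± 0.17 and IFIT2 at -0.93 ± 0.10 were on the side of B2M and NLRC5, whereas RSAD2 at 4.79 ± 0.45, ISG15 at 0.94 ± 0.26 and GBP2 at 0.72 ± 0.25 were on the side of HLA-B in the authors' deposited table.

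Class II presentation genes had low levels in KPC and few rows in PANC1. All 8 listed in KPC had a level (mean normalised count) under 64, with a median of 5.06, and 1 of 7 tested was called, H2-Ob, at -4.69 ± 1.26 with 6.70 in the authors' deposited table; the call was lost after trend subtraction (Wald adjusted p = 0.106). In PANC1 2 of 11 symbols were listed, of which CD74 was at -0.16 ± 0.32 and a level of 29.7 in the authors' deposited table, and 0 were called by the Wald test (0 at an unadjusted p under 0.05). The human class II alpha and beta chain genes lie in the MHC region, where 31.3% of 67 genes well detected in mouse had a PANC1 row, so their absence cannot be read as low RNA.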
